A study of Mus musculus with 12 samples.

Results

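The genes described here are 44 proliferation genes of the S, G2 and M phases of the cell cycle, whose transcripts were counted in pancreatic islets of Tg7 mice, which overexpress miR-7a2 in β-cells, and of their wild-type (Wt) littermates. They were taken by gene symbol from a written list, which was chosen with earlier results of these data known. Each of the 44 had a row of its own among the 37991 genes of the count table, and all 44 passed the filter on low counts that left 15961 genes for testing. All mice were C57BL/6 males, and islets were isolated at 2 weeks (2w) and at 12 weeks (12w) of age. There were 4 groups of 3 libraries: 2w Wt, 2w Tg7, 12w Wt (numbered 1, 2 and 4) and 12w Tg7. Each library came from the pooled islets of at least 3 animals, so the p values measure the spread between pools. The transgene acts in β-cells, but the RNA came from whole islets, which also hold other endocrine, endothelial, stromal and immune cells. Tg7 mice are normoglycaemic at the earlier age and hyperglycaemic at the later one. The promoter that drives the transgene is not described in the sources used here, and the row of the Mir7-2 hairpin held 0 to 13 reads per library; mature miRNAs are too short to be captured by this assay. In such bulk samples, fewer dividing cells and less RNA of these genes per cell cannot be told apart.

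A cell that divides first licenses its replication origins with Cdc6 and the Mcm helicase, then copies its DNA in S phase with Pcna as the sliding clamp and with nucleotides supplied by Rrm1, Rrm2, Tyms and Tk1. E2F factors switch on many of these S phase genes, whereas cyclin B with Cdk1, the Aurora and Polo kinases, centromere proteins and spindle motors act later, in G2 and M, and are switched on largely by Foxm1 and Mybl2. β-cells of rodents divide readily in the first weeks of life and rarely in adults, so these genes are widely used as readouts of islet growth. The 44 genes were ordered by role. There were 18 with S phase roles, made up of 7 licensing and helicase genes, 5 replication fork and nucleotide genes, and 6 G1/S cyclins and transcription or chromatin regulators. The other 26 had G2 and M phase roles, made up of 9 G2/M cyclins, kinases and Foxm1, 4 spindle checkpoint and anaphase-promoting complex genes, 6 chromosome and centromere genes, and 7 spindle and cytokinesis genes.

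The libraries held 11610697 to 17515758 counts. The 44 genes together made up 1707 to 15522 of these, or 0.0147% to 0.0984% of a library, and the median count per gene ran from 18.5 in 12w Wt replicate 1 to 293.5 in 2w Tg7 replicate 1. Precision was therefore lowest in 12w Wt replicate 1, where Uhrf1 had a count of 0, which allows up to 0.378 CPM at a floor of 3 counts. Levels are given as CPM, the counts scaled to library size with TMM factors, for the libraries in the order of their replicate numbers. Fold changes and their standard errors (SE) are on the log2 scale, and adjusted p values come from edgeR's quasi-likelihood test with Benjamini-Hochberg adjustment over all 15961 genes. Genes were called at an adjusted p under 0.05. The libraries had the insulin transcripts of islets, and the summed level of 8 β-cell markers was between 27283 and 481895 CPM.

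**Figure D1:**
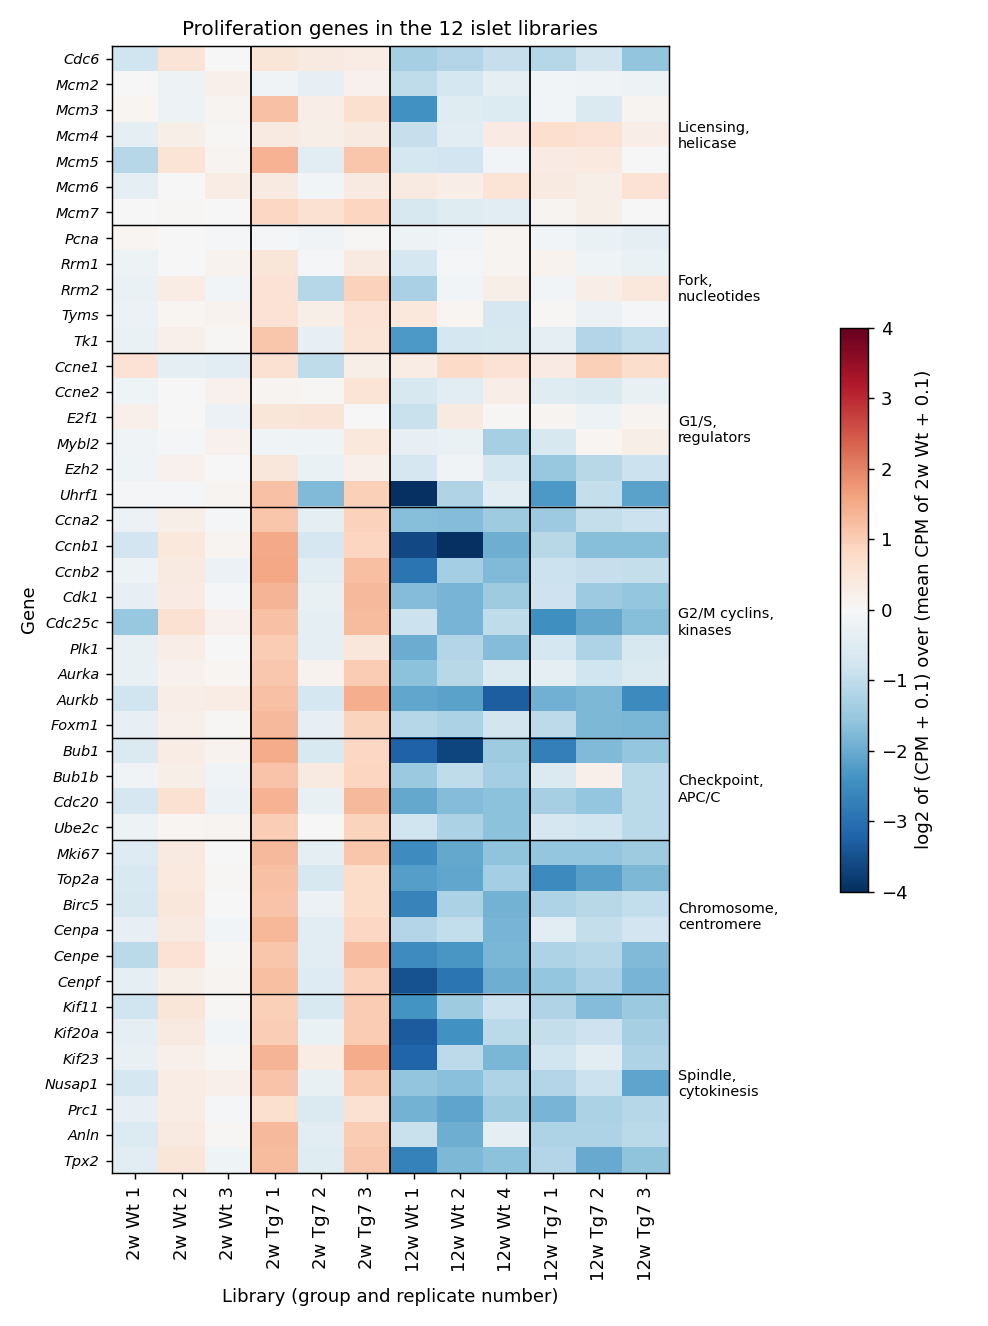
Level of each of the 44 genes (vertical axis, grouped by role) in each of the 12 libraries (horizontal axis), coloured as the log2 ratio of its CPM to the mean of the 2w Wt libraries, with 0.1 CPM added to both and colours ending at −4 and 4. All 26 G2 and M phase genes are below that mean in all 6 libraries at 12w except Bub1b in 12w Tg7 replicate 2, and above it in 2w Tg7 replicates 1 and 3, but only Aurka, Bub1b and Kif23 are above it in replicate 2.

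In 2w Wt islets Pcna had the highest level per kilobase of exons, at 21.3 ± 0.965 CPM per kb (SD, n = 3). It was followed by Mcm6 at 5.91 ± 1.37, Rrm1 at 5.68 ± 0.695, Mcm2 at 4.33 ± 0.592 and Ccna2 at 4.3 ± 0.69 CPM per kb. Pcna stood apart from Mcm6 by more than the spread of either, while Mcm6 and Rrm1, and Mcm2 and Ccna2, did not differ beyond their spread. The lowest levels were those of Uhrf1 at 0.677 ± 0.0523, Tk1 at 0.43 ± 0.0716 and Cdc6 at 0.332 ± 0.149 CPM per kb. Mki67 was the 8th of the 44 in this order at 2w, at 3.52 ± 1.05 CPM per kb, and the 20th in 12w Wt, at 0.86 ± 0.273 CPM per kb. Pcna, Mcm6 and Rrm1 were the 3 highest in both Wt groups and in 12w Tg7, and Bub1 and Cdc6 were among the 3 lowest at 12w in both genotypes.

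In Wt islets, most G2 and M phase genes were lower at 12w than at 2w, and few S phase genes passed the test. In Wt, edgeR called 23 of the 44 genes lower at 12w and 0 higher (29 and 0 at an unadjusted p under 0.05), and DESeq2 26 and 0. Across all 15961 genes tested, 7.91% fell, and 2280 were lower and 2657 higher at an unadjusted p under 0.05. The median log2 fold change of the 44 was −1.28, beside 0.04 for all genes. Of the 26 G2 and M phase genes 21 fell (median −1.77), whereas of the 18 S phase genes 2 fell (median −0.36). All 3 libraries at 12w lay below all 3 at 2w for 31 of the 44 genes, where 15.6% of all genes tested did so.

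The chromosome and centromere genes all fell in Wt, 6 of 6. Mki67, which encodes the Ki-67 antigen that coats mitotic chromosomes, had 24.7, 45.8 and 35.8 CPM in 2w Wt and 6.05, 8.41 and 11.5 CPM in 12w Wt, with no overlap (log2 fold change −2.0, SE 0.37, adjusted p = 0.00238). Top2a, the topoisomerase that untangles sister DNA, went from 20.8, 41.03 and 32.5 to 6.68, 7.3 and 12.1 CPM (log2 fold change −1.83, SE 0.40, adjusted p = 0.00756). Both genes were lowest at 2w in replicate 1 and highest in replicate 2. Cenpf, a kinetochore protein of G2 and M, fell from 9.26, 14.2 and 13.1 to 1.01, 1.51 and 3.07 CPM (log2 fold change −2.64, SE 0.45, adjusted p = 0.0014). Birc5, which encodes survivin of the chromosomal passenger complex, fell from 2.85, 6.19 and 4.52 to 0.63, 1.83 and 1.13 CPM (log2 fold change −1.86, SE 0.45, adjusted p = 0.012). The call of Birc5 rests on 2w Wt replicate 2 and was lost without that library, as were those of Cdk1 and Cdc20 below.

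Of the 9 G2/M cyclins, kinases and Foxm1, 6 fell in Wt. Ccnb1, cyclin B1, had the most negative log2 fold change of all 44 genes: it had 3.38, 7.73 and 6.17 CPM at 2w and 0.378, 0.159 and 1.4 CPM at 12w (log2 fold change −3.03, SE 0.66, adjusted p = 0.00723). The 12w values rest on 3, 2 and 21 counts. Ccna2, cyclin A2, which serves both S phase and G2, fell from 12.9, 17.7 and 14.7 to 4.54, 4.45 and 5.53 CPM (log2 fold change −1.63, SE 0.33, adjusted p = 0.00444). Cdk1, the kinase that drives entry into mitosis, fell from 5.46, 8.69 and 6.6 to 2.02, 1.83 and 2.53 CPM (log2 fold change −1.69, SE 0.41, adjusted p = 0.0134). These 3 genes had no overlap between the ages. Plk1, the Polo-like kinase of centrosomes and kinetochores, went from 4.69, 6.92 and 5.8 to 1.39, 2.54 and 1.67 CPM (log2 fold change −1.61, SE 0.37, adjusted p = 0.00988). Aurkb, the kinase of the chromosomal passenger complex, went from 1.96, 4.27 and 4.31 to 0.756, 0.714 and 0.267 CPM (log2 fold change −2.65, SE 0.61, adjusted p = 0.0102). Plk1 and Aurkb both fell, and every 12w library was below every 2w library. Foxm1, the forkhead factor of the G2 and M programme, had 5.64, 8.1 and 7.34 CPM at 2w and 3.15, 2.86 and 4.2 CPM at 12w, which did not pass the test (log2 fold change −1.03, SE 0.38, adjusted p = 0.0814), although its groups did not overlap. Cdc25c and Aurka did not pass it either.

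All 4 spindle checkpoint and anaphase-promoting complex genes fell in Wt. Cdc20, the activator of the anaphase-promoting complex, had 4.45, 10.8 and 6.07 CPM at 2w and 1.64, 2.06 and 2.2 CPM at 12w (log2 fold change −1.83, SE 0.44, adjusted p = 0.0131). Replicate 2 was the highest at 2w by a wide margin. Of the 7 spindle and cytokinesis genes, Kif20a, Kif23, Nusap1, Prc1 and Tpx2 fell, while Anln and Kif11 did not pass the test. Of the 23 calls 9, those of Ccna2, Ccnb1, Cenpe, Cenpf, Mki67, Plk1, Prc1, Top2a and Tpx2, were also made in all 21 alternative settings. Without 2w Wt replicate 2, the library with the highest G2 and M levels of its group, 11 of the 44 genes fell, where 4.7% of all genes did so.

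Most S phase genes did not pass the test in Wt. Pcna had 53.7, 50.01 and 49.4 CPM at 2w and 44.4, 47.3 and 54.5 CPM at 12w, and the 95% interval of its log2 fold change ran from −0.32 to 0.19 around −0.06. Mcm6, a helicase subunit, had 19.9, 25.7 and 31.8 CPM at 2w and 32.9, 31.2 and 37.5 CPM at 12w (log2 fold change 0.39, 95% interval −0.01 to 0.79). Tyms, thymidylate synthase, had 8.01, 9.8 and 10.3 CPM at 2w and 12.5, 9.84 and 5.8 CPM at 12w (log2 fold change −0.01, 95% interval −0.55 to 0.52). The ages overlapped for all 3, and the median of the G2 and M phase genes, −1.77, lay outside each of these intervals. Rrm2, the regulated subunit of ribonucleotide reductase, had 3.44, 5.16 and 3.88 CPM at 2w and 1.64, 3.81 and 4.93 CPM at 12w, and its interval was wide (log2 fold change −0.23, 95% interval −1.24 to 0.78). Ccne1, cyclin E1, had 4.69, 2.36 and 2.23 CPM at 2w and 3.78, 5.32 and 4.67 CPM at 12w and the most positive log2 fold change of the 44 in Wt, which did not pass the test (log2 fold change 0.57, SE 0.41, adjusted p = 0.365). Ccne2, cyclin E2, had 7.71, 8.54 and 9.9 CPM at 2w and 5.55, 6.35 and 10.5 CPM at 12w (log2 fold change −0.21, SE 0.25, adjusted p = 0.613). E2f1, the E2F factor that activates S phase genes, had 12.04, 10.5 and 8.99 CPM at 2w and 5.67, 13.4 and 10.9 CPM at 12w (log2 fold change −0.05, SE 0.27, adjusted p = 0.911). None of these cyclins and factors was called.

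Of the S phase genes, Mcm2 and Mcm7 fell in Wt. Mcm2 had 14.4, 12.7 and 16.7 CPM at 2w and 7.18, 8.89 and 11.3 CPM at 12w (log2 fold change −0.67, SE 0.20, adjusted p = 0.0351). Mcm7 had 16.3, 17.1 and 16.3 CPM at 2w and 10.6, 11.7 and 12.1 CPM at 12w (log2 fold change −0.53, SE 0.14, adjusted p = 0.0193). Neither gene overlapped between the ages, but the call of Mcm2 was lost in 8 of the 21 alternative settings and that of Mcm7 in 5. Mcm5 had 1.84, 6.11 and 4.52 CPM at 2w and 2.52, 2.38 and 3.87 CPM at 12w (log2 fold change −0.49, SE 0.48, adjusted p = 0.52), and its 2w libraries spread widely. Tk1, the salvage kinase for thymidine, had 1.84, 2.58 and 2.29 CPM at 2w and 0.378, 1.35 and 1.4 CPM at 12w (log2 fold change −1.03, SE 0.50, adjusted p = 0.176). Ezh2, the methyltransferase of Polycomb repressive complex 2, had 10.6, 13.3 and 11.8 CPM at 2w and 7.44, 10.8 and 7.2 CPM at 12w (log2 fold change −0.48, SE 0.25, adjusted p = 0.197). Uhrf1, which couples DNA methylation to replication, had 2.79, 2.73 and 3.14 CPM at 2w and 0, 1.19 and 2.13 CPM at 12w (log2 fold change −1.27, SE 0.80, adjusted p = 0.296). Tk1 and Uhrf1 were lower in all 12w libraries than in all 2w libraries but did not pass the test at these low counts.

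Other cells of the islet moved with age in Wt as well. All 6 endothelial markers fell, from a summed 691 to 913 CPM at 2w to 288 to 390 CPM at 12w, and 6 of 8 stellate and fibroblast markers fell, from 226 to 328 CPM to 37.1 to 44.7 CPM. Macrophage markers went the other way, from a summed 41.7 to 55.5 CPM to 85.5 to 92.0 CPM, and 2 of 7 rose. Of the β-cell markers 4 of 8 rose, while 2 of 5 alpha cell and 1 of 2 delta cell markers fell. Summed levels overlapped between the ages for alpha cells (35466 to 48070 and 25581 to 46523 CPM). They also did for delta cells (1945 to 2016 CPM at 2w and 1871 to 4612 CPM at 12w). The part of these cells in the fall of the proliferation genes was not tested, and age cannot be told apart from any difference between islet preparations at the 2 ages.

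**Figure D2:**
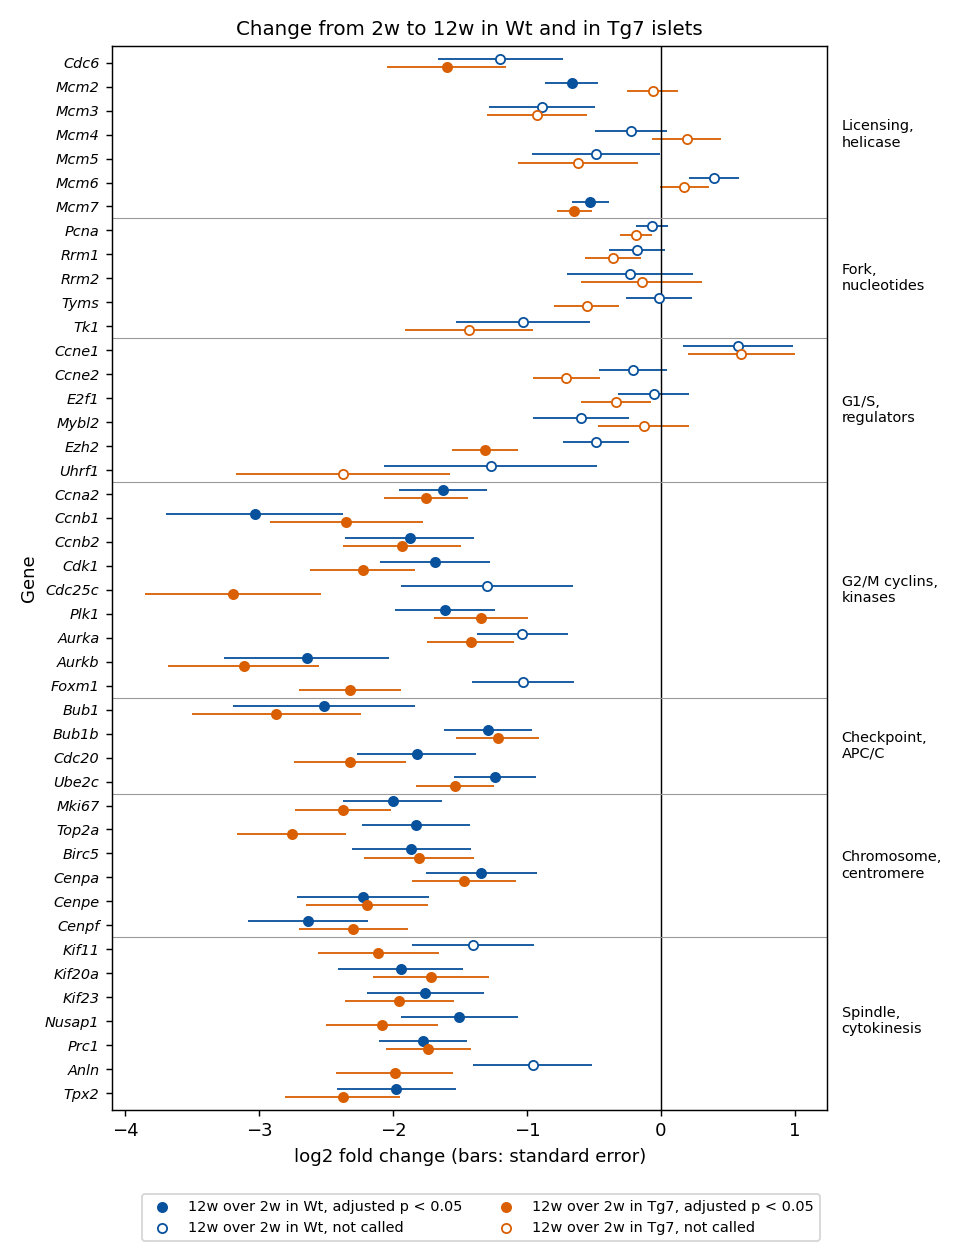
Log2 fold change from 2w to 12w (horizontal axis, with standard errors) of each of the 44 genes (vertical axis, grouped by role) in Wt (blue) and in Tg7 (orange), with filled points for an adjusted p under 0.05. All 26 G2 and M phase genes lie left of 0 in both genotypes, from −0.96 to −3.20, and the median of the 18 S phase genes is −0.36 in Wt and −0.45 in Tg7.

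In Tg7 islets the same phases moved. From 2w to 12w, edgeR called 29 of the 44 genes lower and 0 higher (34 and 0 at an unadjusted p under 0.05), and DESeq2 32 and 0, where 6.01% of all genes tested fell. At the unadjusted p, 2122 of the 15961 genes tested were lower and 2228 higher. The median log2 fold change of the 44 was −1.66, beside −0.01 for all genes. All 26 G2 and M phase genes fell (median −2.10), and of the 18 S phase genes Cdc6, Mcm7 and Ezh2 fell (median −0.45). Each 12w library lay below each 2w library for 33 of the 44, where 19.2% of all genes tested did so. Of the calls, 22 were shared with Wt, which is 95.7% of the 23 calls in Wt and 75.9% of the 29 in Tg7. Anln, Aurka, Cdc25c, Cdc6, Ezh2, Foxm1 and Kif11 were called in Tg7 alone and Mcm2 in Wt alone, but none of these differed between the genotypes in the test of the difference given below.

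Mki67 had 87.3, 27.8 and 76.9 CPM in 2w Tg7 and 12.1, 11.95 and 13.04 CPM in 12w Tg7 (log2 fold change −2.37, SE 0.36, adjusted p = 0.000724). Top2a had 70.3, 20.004 and 52.2 CPM at 2w and 5.3, 6.86 and 8.92 CPM at 12w (log2 fold change −2.76, SE 0.41, adjusted p = 0.000633). In both, 2w Tg7 replicate 2 was far below replicates 1 and 3, yet above all 12w libraries. Birc5 went from 10.03, 3.83 and 7.65 to 1.86, 2.05 and 2.23 CPM (log2 fold change −1.81, SE 0.41, adjusted p = 0.0106). Cdc20 went from 18.9, 5.78 and 17.5 to 2.76, 2.38 and 3.32 CPM (log2 fold change −2.32, SE 0.42, adjusted p = 0.00247). Bub1, the kinetochore kinase of the spindle checkpoint, went from 9.18, 2.08 and 5.76 to 0.395, 0.885 and 1.03 CPM (log2 fold change −2.87, SE 0.63, adjusted p = 0.00826). All 3 had the same order of libraries at 2w, with replicate 1 the highest and replicate 2 the lowest.

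Among the G2/M kinases and cyclins of Tg7, Cdc25c, the phosphatase that activates Cdk1, had the most negative log2 fold change of the 44. It went from 3.95, 1.3 and 4.22 to 0.226, 0.332 and 0.458 CPM (log2 fold change −3.20, SE 0.66, adjusted p = 0.0056), on 4, 6 and 8 counts at 12w. Ccna2 fell from 32.4, 11.4 and 28.96 to 5.47, 7.8 and 8.3 CPM (log2 fold change −1.76, SE 0.31, adjusted p = 0.00232). Ccnb1 fell from 16.6, 3.57 and 10.6 to 2.59, 1.72 and 1.72 CPM (log2 fold change −2.35, SE 0.57, adjusted p = 0.015). For both cyclins all 12w libraries were below the lowest 2w library. Cdk1 fell from 17.98, 5.59 and 17.04 to 3.89, 2.49 and 2.29 CPM (log2 fold change −2.23, SE 0.39, adjusted p = 0.00207). Foxm1, which in Wt was called in 5 of the 21 alternative settings, DESeq2 among them, but not with the main settings, fell from 17.3, 5.59 and 13.2 to 3.38, 1.94 and 1.89 CPM (log2 fold change −2.32, SE 0.38, adjusted p = 0.00131). Plk1 and Aurkb fell too. Plk1 went from 11.7, 4.55 and 8.05 to 3.5, 2.43 and 3.66 CPM (log2 fold change −1.34, SE 0.35, adjusted p = 0.0204). Aurkb went from 8.06, 2.14 and 9.89 to 0.846, 0.941 and 0.515 CPM (log2 fold change −3.12, SE 0.56, adjusted p = 0.00247). Foxm1 and Aurkb were among the genes called in all 21 alternative settings, as were 19 others, whereas Ccnb1 lost its call without 2w Tg7 replicate 1 or without 12w Tg7 replicates 2 or 3, and Plk1 without 2w Tg7 replicate 1 or any 12w Tg7 library.

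In Tg7, too, most S phase genes did not pass the test. Pcna had 48.02, 45.9 and 52.9 CPM at 2w and 46.97, 42.2 and 39.99 CPM at 12w (log2 fold change −0.19, 95% interval −0.44 to 0.07). Mcm6 had 33.4, 23.7 and 33.4 CPM at 2w and 33.1, 30.7 and 38.4 CPM at 12w (log2 fold change 0.17, 95% interval −0.22 to 0.57). Mcm4 had 13.02, 11.95 and 13.1 CPM at 2w and 16.3, 15.05 and 12.2 CPM at 12w (log2 fold change 0.19, 95% interval −0.36 to 0.75). These helicase subunits were the 2 most positive after Ccne1, which had 4.8, 1.49 and 3.63 CPM at 2w and 3.89, 6.09 and 5.15 CPM at 12w (log2 fold change 0.60, SE 0.40, adjusted p = 0.359). Mcm2 had 13.2, 11.6 and 16.3 CPM at 2w and 13.6, 13.3 and 12.6 CPM at 12w (log2 fold change −0.06, SE 0.19, adjusted p = 0.867), and Mcm5 had 10.99, 2.99 and 8.99 CPM at 2w and 5.24, 5.53 and 4.23 CPM at 12w (log2 fold change −0.62, SE 0.45, adjusted p = 0.402). None of these was called. Mcm7 fell from 29.3, 25.4 and 29.9 to 17.8, 19.5 and 16.7 CPM (log2 fold change −0.65, SE 0.13, adjusted p = 0.00571), and Ezh2 fell from 16.2, 9.87 and 13.9 to 4.06, 5.42 and 6.58 CPM (log2 fold change −1.31, SE 0.25, adjusted p = 0.00315).

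Among the other S phase genes of Tg7, the spread at 2w was wide for Rrm2, Tk1 and Uhrf1. Rrm2 had 6.24, 1.82 and 7.9 CPM at 2w and 3.83, 5.03 and 5.66 CPM at 12w (log2 fold change −0.14, SE 0.45, adjusted p = 0.869). Tyms had 14.03, 10.98 and 13.9 CPM at 2w and 9.76, 7.91 and 8.87 CPM at 12w (log2 fold change −0.55, SE 0.24, adjusted p = 0.156). Tk1 had 4.96, 1.75 and 3.33 CPM at 2w and 1.69, 0.941 and 1.09 CPM at 12w (log2 fold change −1.43, SE 0.48, adjusted p = 0.0633). Rrm2 overlapped between the ages, and Tyms and Tk1 did not. E2f1 had 14.6, 15.1 and 10.3 CPM at 2w and 11.2, 9.18 and 11.3 CPM at 12w (log2 fold change −0.34, SE 0.26, adjusted p = 0.435). Ccne2 had 9.39, 8.96 and 12.9 CPM at 2w and 6.26, 5.86 and 7.04 CPM at 12w (log2 fold change −0.71, SE 0.25, adjusted p = 0.079). Uhrf1 had 6.62, 0.779 and 5.71 CPM at 2w and 0.507, 1.44 and 0.572 CPM at 12w (log2 fold change −2.37, SE 0.80, adjusted p = 0.0661), and 2w Tg7 replicate 2 lay within the 12w range. Stellate and fibroblast markers were at a summed 415 to 560 CPM in 2w Tg7 and 268 to 303 CPM in 12w Tg7 (5 of 8 fell and 1 rose), and endothelial markers at 787 to 876 and 637 to 698 CPM (1 of 6 fell). Their part in the fall of the proliferation genes was not tested.

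Summed per kilobase of exons, the phases came apart with age. The 18 S phase genes summed to 58.6, 61.6 and 63.1 CPM per kb in 2w Wt, 77.4, 59.3 and 77.1 in 2w Tg7, 46.1, 55.9 and 62.8 in 12w Wt, and 60.9, 57.6 and 58.0 in 12w Tg7. The 26 G2 and M phase genes summed to 39.4, 68.2 and 53.3 CPM per kb in 2w Wt, 125, 42.9 and 109 in 2w Tg7, 13.6, 16.7 and 19.4 in 12w Wt, and 24.2, 23.6 and 22.6 in 12w Tg7. The ratio of the G2 and M sum to the S sum was 0.673 to 1.11 in 2w Wt, 0.723 to 1.61 in 2w Tg7, 0.296 to 0.309 in 12w Wt and 0.391 to 0.411 in 12w Tg7. Thus the 12w libraries had ratios below all 2w libraries, and those of 12w Tg7 lay above those of 12w Wt, as a description without a test. The S sum mostly follows its most abundant genes, as Pcna alone averaged 21.3 CPM per kb in 2w Wt and 20.3 in 12w Wt. Uhrf1, Cdc6 and Tk1, which add little to it, had log2 fold changes with age of −1.27, −1.20 and −1.03 in Wt, none called. Of the 18 S phase genes, 16 were negative in Wt and 2 positive.

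**Figure D3:**
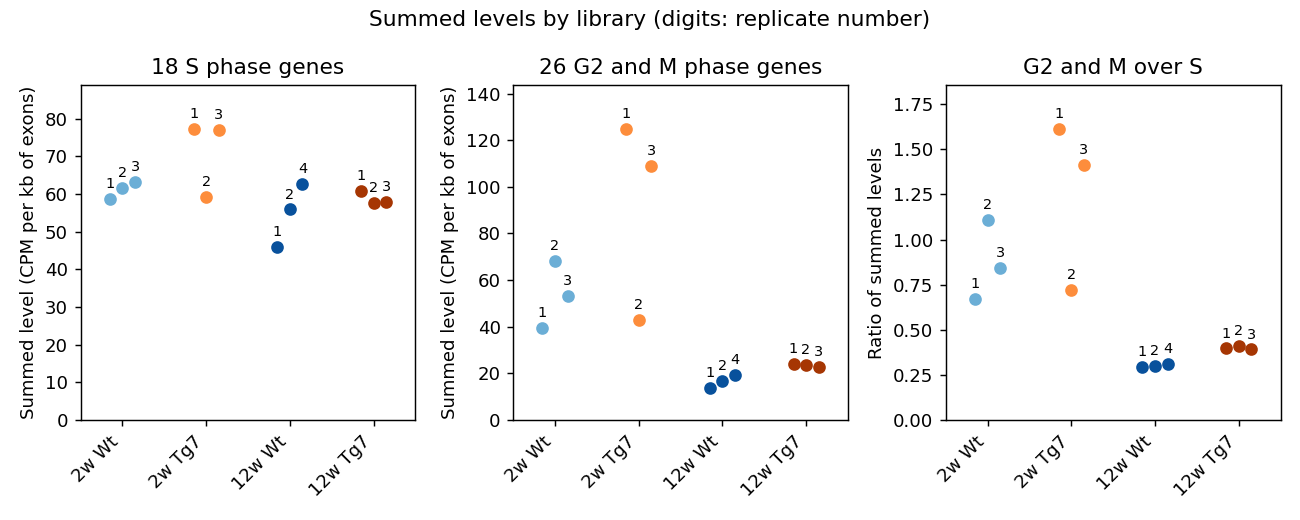
Summed CPM per kilobase of exons of the 18 S phase genes (left), of the 26 G2 and M phase genes (middle) and the ratio of the sums (right) in each library, with its replicate number, for the 4 groups on the horizontal axes. The S sum stays between 46.1 and 77.4 CPM per kb, and the G2 and M sum lies between 39.4 and 125 at 2w and between 13.6 and 24.2 at 12w.

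The promoters of the phases differ in their letters. Many genes of G2 and M carry a cell cycle homology region (CHR), which the DREAM and MuvB complexes bind, close to CCAAT boxes, which NF-Y binds, while many S phase genes carry E2F sites. RefSeq promoters (GRCm38.p6, 250 bases before to 50 after a start site) were at hand for 36 of the 44 genes, 16 of S phase and 20 of G2 and M. The CHR was searched as TTTGAA or TTTAAA, the CCAAT box as CCAAT, and E2F sites as TTTCCCGC, TTTGGCGC, TTTCGCGC or TTTGCCGC, each on both strands; TTTAAA reads the same on both. A CHR match was in 18 of the 20 G2 and M phase promoters (90%) and 6 of the 16 S phase promoters (37.5%), beside 30.6% of the 27025 genes with a promoter and 22.8% of those tested. A CCAAT box was in 85% and 62.5%, beside 41.1% of all genes. An E2F match was in 1 of the 20 (5%, that of Cdk1) and 7 of the 16 (43.75%), beside 2.60% of all genes. These are matches of letters and not measured sites. The following windows of 30 bases show CHR matches in capitals in G2 and M phase genes that fell in both genotypes.
Mki67 (chr7:135716460-135716489, minus strand): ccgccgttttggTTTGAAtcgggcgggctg
Cdk1 (chr10:69352910-69352939, minus strand): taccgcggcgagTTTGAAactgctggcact
Ccnb2 (chr9:70421533-70421562, minus strand): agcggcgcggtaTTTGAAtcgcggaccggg
Plk1 (chr7:122159453-122159482, plus strand): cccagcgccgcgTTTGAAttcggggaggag
Cdc20 (chr4:118437344-118437373, minus strand): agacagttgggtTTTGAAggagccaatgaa
Cenpa (chr5:30666890-30666919, plus strand): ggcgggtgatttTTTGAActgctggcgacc
Prc1 (chr7:80294434-80294463, plus strand): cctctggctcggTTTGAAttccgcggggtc

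The Cdc20 window also holds a CCAAT box after its CHR. The next windows show E2F matches in capitals in S phase genes, most of them helicase genes; that of Cdc6 reads on the opposite strand. All windows are from RefSeq promoters on GRCm38.p6.
Mcm3 (chr1:20820263-20820292, minus strand): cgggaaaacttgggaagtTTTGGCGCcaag
Mcm5 (chr8:75109345-75109374, plus strand): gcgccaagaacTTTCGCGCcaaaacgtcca
Mcm6 (chr1:128359797-128359826, minus strand): tggcgtatgctTTTGGCGCgaaaagtgcgt
Mcm7 (chr5:138171849-138171878, minus strand): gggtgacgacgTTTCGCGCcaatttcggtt
Cdc6 (chr11:98908002-98908031, plus strand): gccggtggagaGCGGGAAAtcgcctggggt
Ezh2 (chr6:47595009-47595038, minus strand): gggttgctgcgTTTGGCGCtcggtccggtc

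The Mcm7 match overlaps a CCAAT box by 1 base. Within a phase, the median log2 fold change with age in Wt was −0.53 for the 7 S phase genes with an E2F match and −0.18 for the 9 without, and in Tg7 −0.93 and −0.19. With a CHR it was −1.77 in Wt for 18 G2 and M phase genes and −2.01 for the 2 without, Bub1 and Nusap1. With so few genes in some classes these medians are descriptions.

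The transgene's own miRNA was compared with the 3′ UTRs of the 44 genes. The mature miR-7a-5p, from the Mir7-2 hairpin (chr7:78888295-78888317, plus strand, GRCm38.p6, RefSeq), is printed with its seed, bases 2 to 8, in capitals.
miR-7a-5p: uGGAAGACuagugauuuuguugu

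A match to this seed, GTCTTCC, was in the annotated 3′ UTR (mm9) of 3 of the 44 genes (6.82%), beside 1896 of 14406 tested genes with a 3′ UTR (13.2%). The 3 sites are shown with the match in capitals.
Nusap1 (chr2:119475583-119475612, plus strand, mm9): ctccatccacttGTCTTCCacaactgttga
Tpx2 (chr2:152720917-152720946, plus strand, mm9): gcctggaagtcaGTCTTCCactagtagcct
Uhrf1 (chr17:56462285-56462314, plus strand, mm9): aagcccagacatGTCTTCCtggcagctatc

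None of Nusap1, a spindle protein, Tpx2, the activator of Aurora A, and Uhrf1 was called between Tg7 and Wt at either age. Whether these sites act in islets was not measured here.

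At 2w, Tg7 islets differed from Wt in 1 of the 44 genes: edgeR called Mcm7 higher and 0 lower, and DESeq2 called Mcm7 and Kif23 higher and 0 lower. Across all genes tested, 6.07% were called higher. Of the 44 log2 fold changes 42 were positive, with a median of 0.70, beside 0.03 for all genes. At an unadjusted p under 0.05, 11 were higher and 0 lower, beside 2510 and 1784 of the 15961 genes tested. The 2w Tg7 libraries were not alike: 2w Tg7 replicates 1 and 3 were above all 2w Wt libraries in 39 of the 44 genes each, and replicate 2 was in 7. Replicate 2 was the lowest Tg7 library for 42 of the 44 genes, and 2w Wt replicate 1 was the lowest Wt library for 36. For these counts of single libraries, the shares of all genes tested were not taken. All 3 Tg7 libraries lay above all 3 Wt libraries for 6 genes, Mcm3, Mcm4, Mcm7, Tyms, Bub1b and Kif23, where 17.8% of all genes tested did so.

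Mki67 shows the pattern, with Tg7 values of 87.3, 27.8 and 76.9 CPM beside Wt values of 24.7, 45.8 and 35.8 CPM (log2 fold change 0.86, SE 0.34, adjusted p = 0.121). Top2a had 70.3, 20.004 and 52.2 CPM in Tg7 and 20.8, 41.03 and 32.5 CPM in Wt (log2 fold change 0.60, SE 0.37, adjusted p = 0.331). Cdk1 had 17.98, 5.59 and 17.04 CPM in Tg7 and 5.46, 8.69 and 6.6 CPM in Wt (log2 fold change 0.97, SE 0.37, adjusted p = 0.107). In each, replicate 2 of Tg7 lay within or below the Wt range. The other G2 and M phase genes named above had log2 fold changes of 0.99 for Cdc20, 0.94 for Aurkb, 0.84 for Ccnb1, 0.78 for Foxm1, 0.69 for Ccna2, 0.67 for Birc5 and 0.49 for Plk1, with adjusted p between 0.123 and 0.387. Mcm5, the helicase subunit with the largest log2 fold change at 2w, had 10.99, 2.99 and 8.99 CPM in Tg7 and 1.84, 6.11 and 4.52 CPM in Wt (log2 fold change 0.89, SE 0.46, adjusted p = 0.228).

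Without 2w Tg7 replicate 2, 11 of the 44 genes rose, where 5.03% of all genes did so, and the median log2 fold change was 1.0. Without 2w Tg7 replicate 1 the median was 0.41, and 1 gene, Mcm7, was called. The labels give no reason to leave either library out. Replicate 2 also stood apart in cell type markers: its 5 alpha cell markers summed to 82047 CPM, beside 44754 and 50836 CPM in replicates 1 and 3, and its 8 β-cell markers to 52309 CPM, beside 35813 and 27283 CPM. In 2w Wt the β-cell markers summed to 110466 to 180134 CPM, and 7 of the 8 fell in Tg7. Stellate and fibroblast markers were higher in all 2w Tg7 libraries (415 to 560 CPM) than in 2w Wt (226 to 328 CPM), and 6 of 8 rose. In 2w Tg7 replicate 1 alone, 5 T and NK cell markers summed to 10.8 CPM, beside 0 to 1.44 CPM in the other 2w libraries, and 4 B cell markers to 23.3 CPM, beside 2.5 to 5.91 CPM. The part of these cells in the proliferation genes was not tested.

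**Figure D4:**
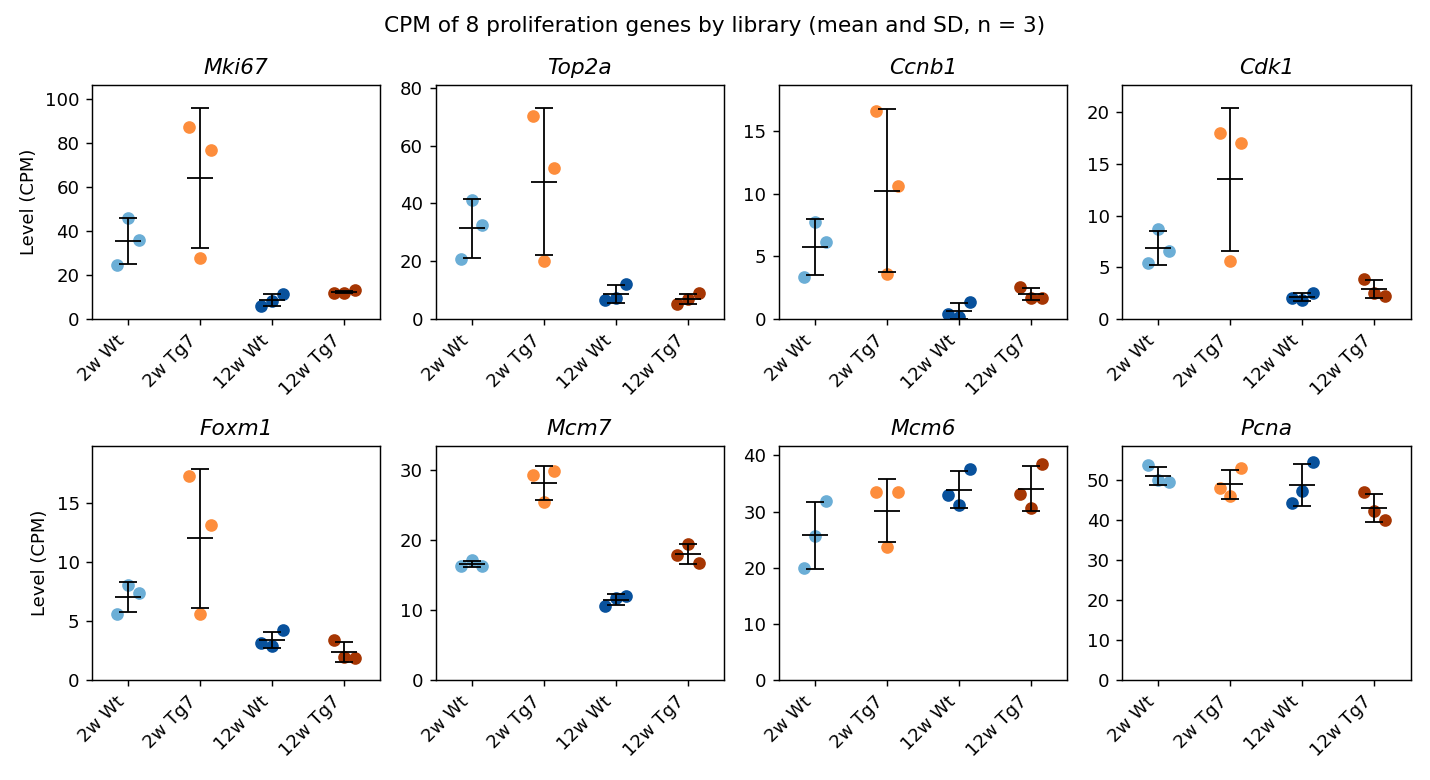
CPM (vertical axes, from 0) of 8 of the genes in each library (points) of the 4 groups (horizontal axes), with the mean and SD of 3 libraries in black. Mki67, Top2a, Ccnb1, Cdk1 and Foxm1 split the 2w Tg7 group, whereas Mcm7 lies between 25.4 and 29.9 CPM in 2w Tg7 and between 16.3 and 17.1 CPM in 2w Wt.

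Mcm7 was the exception among the 44 genes in being called at both ages. It encodes a subunit of the Mcm2-7 helicase, and its gene also hosts the miR-25 and miR-93 hairpins (mm9 chr5:138605811-138613650, minus strand). At 2w it had 29.3, 25.4 and 29.9 CPM in Tg7 and 16.3, 17.1 and 16.3 CPM in Wt, 1.70-fold higher (log2 fold change 0.77, SE 0.13, adjusted p = 0.00264). At 12w it had 17.8, 19.5 and 16.7 CPM in Tg7 and 10.6, 11.7 and 12.1 CPM in Wt, 1.57-fold higher (log2 fold change 0.65, SE 0.14, adjusted p = 0.00412). The groups did not overlap at either age, and 2w Tg7 replicate 2 was close to replicates 1 and 3, unlike for most of the other genes. The call was made in all 21 alternative settings at both ages. Of the exon bases of Mcm7, 7.25% overlap Ap4m1 and 1.45% overlap Cops6 on the opposite strand, and whether reads were counted by strand is not stated for these data. Ap4m1 had log2 fold changes of 0.13 (SE 0.21) at 2w and 0.18 (SE 0.21) at 12w, and Cops6 −0.21 (SE 0.16) and −0.10 (SE 0.16), none called. With the main settings of edgeR the other helicase subunits were not called between Tg7 and Wt at either age. At 12w, however, Mcm4 was called higher in 7 of the 21 alternative settings, DESeq2 among them, and Mcm2 in 4, and whether Mcm7 differed from them in its change was not tested.

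At 12w edgeR called 1 of the 44 genes, Mcm7, higher in Tg7 and 0 lower, where 12.5% of all genes were called higher, and DESeq2 called 3 higher and 0 lower. Of the log2 fold changes 34 were positive and 10 negative, with a median of 0.45, beside −0.01 for all genes. Without 12w Wt replicate 1 the median was 0.29. An unadjusted p was under 0.05 for 7 higher and 1 lower, beside 2907 and 2736 of the 15961 genes tested. Tg7 and Wt did not overlap for 11 genes that were higher in Tg7, where 20.7% of all genes tested did so: Mcm2, Mcm5, Mcm7, Ccnb1, Ccnb2, Cdc20, Mki67, Birc5, Cenpa, Cenpe and Cenpf. For Ezh2 alone of the 44 all Tg7 libraries were lower, where 2609 of the 15961 genes tested were. Except for Mcm7 none of the genes named here passed the test.

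The 12w levels of Mki67 were 12.1, 11.95 and 13.04 CPM in Tg7 and 6.05, 8.41 and 11.5 CPM in Wt (log2 fold change 0.49, SE 0.37, adjusted p = 0.381). Those of Ccnb1 were 2.59, 1.72 and 1.72 CPM in Tg7 and 0.378, 0.159 and 1.4 CPM in Wt (log2 fold change 1.52, SE 0.68, adjusted p = 0.125), on 2 to 46 counts. Those of Mcm2 were 13.6, 13.3 and 12.6 CPM in Tg7 and 7.18, 8.89 and 11.3 CPM in Wt (log2 fold change 0.52, SE 0.20, adjusted p = 0.0741). In all 3, 12w Wt replicate 4 was the Wt library nearest to Tg7. Ezh2 had 4.06, 5.42 and 6.58 CPM in Tg7 and 7.44, 10.8 and 7.2 CPM in Wt (log2 fold change −0.67, SE 0.25, adjusted p = 0.0712). Top2a had 5.3, 6.86 and 8.92 CPM in Tg7 and 6.68, 7.3 and 12.1 CPM in Wt (log2 fold change −0.33, SE 0.41, adjusted p = 0.621), and Foxm1 3.38, 1.94 and 1.89 CPM in Tg7 and 3.15, 2.86 and 4.2 CPM in Wt (log2 fold change −0.51, SE 0.39, adjusted p = 0.395). These were among the 10 negative values. For Mcm5, Plk1, Birc5, Ccna2, Cdc20 and Cdk1 the log2 fold changes were 0.76, 0.76, 0.73, 0.56, 0.50 and 0.43, with adjusted p between 0.168 and 0.511.

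The 12w count of calls depends on scaling and on a library. With library size alone 11 of the 44 genes were higher in Tg7, where 32.6% of all genes were, and without 12w Wt replicate 4 there were 6, where 13% of all genes were. At this age all 6 endothelial markers and all 8 stellate and fibroblast markers rose in Tg7, to summed levels of 637 to 698 CPM and 268 to 303 CPM, beside 288 to 390 CPM and 37.1 to 44.7 CPM in Wt. Of the 8 β-cell markers 7 fell in Tg7, to a summed 100152 to 105539 CPM, beside 198236 to 481895 CPM in Wt. The part of these cells in the levels of the proliferation genes was not tested.

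**Figure D5:**
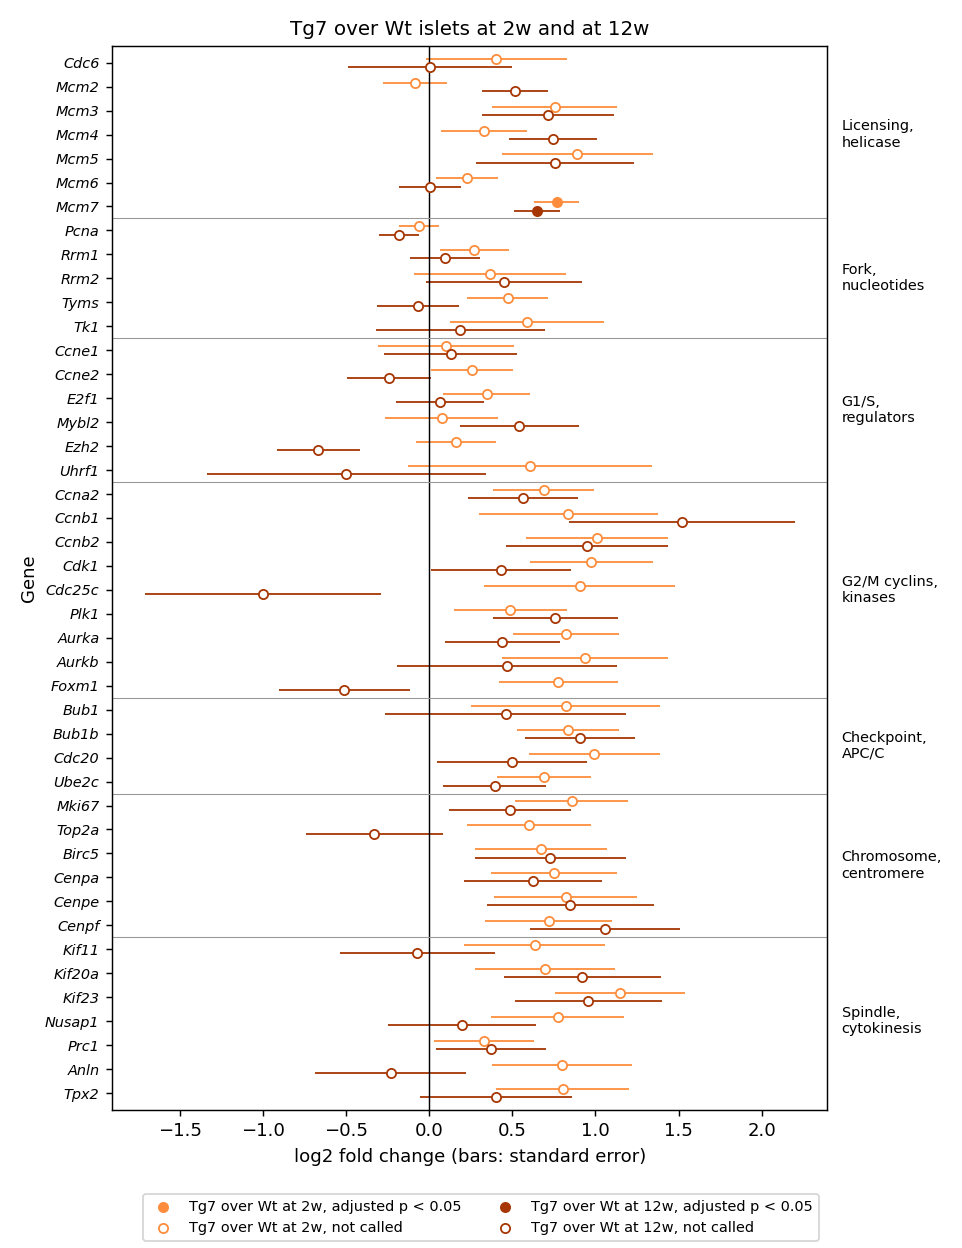
Log2 fold change of Tg7 over Wt (horizontal axis, with standard errors) of each of the 44 genes (vertical axis, grouped by role) at 2w (light orange) and at 12w (brown), with filled points for an adjusted p under 0.05. Mcm7 holds the only filled points, at 0.77 and 0.65, and at 2w 42 of the 44 points lie right of 0.

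The difference between Tg7 and Wt was not shown to change with age for any of the 44 genes. The test of the difference between the ages by edgeR called 0 of 44, as did DESeq2. Of all genes tested, edgeR called 1.18% in either direction. An unadjusted p was under 0.05 for 1 of the 44 higher and 2 lower, beside 1149 and 1164 of the 15961 genes tested. Among the 44 these were Mcm2 (log2 difference 0.60, SE 0.28, adjusted p = 0.334), Foxm1 (−1.29, SE 0.53, adjusted p = 0.284) and Ezh2 (−0.83, SE 0.35, adjusted p = 0.291). The same test compares the change with age between the genotypes. The interval of the difference for Foxm1 ran from −2.43 to −0.14.

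Of 98 further cell cycle genes on a written list, 97 had a row and 96 were tested, 38 of replication and 58 of mitosis. In Wt, 23 fell and 2 rose with age, 21 and 2 of them of mitosis, where 7.91% of all genes fell and 7.9% rose. Kif15, a spindle motor (log2 fold change −2.77, SE 0.66, adjusted p = 0.0122), Cdca5, the cohesin regulator sororin (−2.65, SE 0.50, adjusted p = 0.00282), and Ttk, the checkpoint kinase Mps1 (−2.48, SE 0.67, adjusted p = 0.0217), had the largest changes among those called. In Tg7, 47 fell and 0 rose with age, 40 of them of mitosis, where 6.01% of all genes fell. At an unadjusted p under 0.05, 67 fell and 0 rose, beside 2122 and 2228 of the 15961 genes tested. Iqgap3, Kif18b and Kif14 led the called falls at −3.45, −3.22 and −2.96 (SE 0.48, 0.64 and 0.60, adjusted p = 0.000408, 0.0044 and 0.00502). Between Tg7 and Wt, 3 rose and 2 fell at 2w, and 3 rose and 3 fell at 12w. Of all genes, 6.07% rose and 4.55% fell at 2w, and 12.5% rose and 11.2% fell at 12w. Spc25, a subunit of the Ndc80 kinetochore complex, was lower in Tg7 at 2w (−1.23, SE 0.15, adjusted p = 0.000151). At 12w its fold change was −2.42 (SE 0.15, adjusted p = 1.88e-07). The condensin subunit Ncapd2 rose at 2w (0.89, SE 0.18, adjusted p = 0.0068). Orc6 of the origin recognition complex was lower in Tg7 at 12w (−1.33, SE 0.19, adjusted p = 0.000234), and Cdca5 was higher (1.70, SE 0.51, adjusted p = 0.0266).

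Entry into this programme is set in G1, by D-type cyclins, Cdk4, Cdk6 and Cdk2 against Cdk inhibitors and pocket proteins. Of 27 such genes 26 were tested: 0 rose and 2 fell in Tg7 against Wt at 2w, 2 rose and 2 fell at 12w, and with age 0 rose and 3 fell in Wt and 0 rose and 2 fell in Tg7. The shares of all genes that fell in these comparisons were 4.55%, 11.2%, 7.91% and 6.01%. At an unadjusted p under 0.05, the numbers that rose were 0 at 2w, 0 with age in Wt and 2 with age in Tg7. Those of all 15961 genes tested were 2510, 2657 and 2228. Ccnd2, the main D-type cyclin of mouse islets, was lower in Tg7 at 2w (log2 fold change −0.91, SE 0.17, adjusted p = 0.00336). It was also lower at 12w (−1.49, SE 0.17, adjusted p = 3.45e-05). Ccnd1 was lower at 2w (−0.53, SE 0.12, adjusted p = 0.01). Cdk2, the partner of cyclins E and A, was higher in Tg7 at 12w (1.29, SE 0.25, adjusted p = 0.00183) and fell with age in Wt (−1.71, SE 0.25, adjusted p = 0.000427). The atypical E2F repressor E2f7 was higher in Tg7 at 12w (1.63, SE 0.31, adjusted p = 0.00196) and fell with age in Wt (−1.18, SE 0.31, adjusted p = 0.0204). E2f8 fell with age in both genotypes (−2.36 in Wt, −2.15 in Tg7), and Cdkn1c, the inhibitor p57, fell in Tg7 (−1.30, SE 0.27, adjusted p = 0.00622).

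Of the 44 genes, 12 share exon bases with another gene of the mm9 annotation. The largest shares were 32.3% of Kif20a with Cdc23, 22.8% of Ube2c with Tnnc2, 17.4% of Ccne2 with Ints8 and 14.6% of Ccna2 with Exosc9, all on opposite strands. As strand was not known to be used, part of their reads could belong to the neighbour. Cdc23 and Exosc9 had log2 fold changes with age of −0.37 (SE 0.12) and 0.33 (SE 0.17) in Wt and −0.15 (SE 0.12) and 0.32 (SE 0.17) in Tg7, neither called, beside the larger falls of Kif20a and Ccna2. Ints8 had log2 fold changes with age of −0.31 (SE 0.11) in Wt and 0.17 (SE 0.11) in Tg7, neither called. By edgeR, Ints8 was called higher in Tg7 than in Wt at 12w (log2 fold change 0.32, SE 0.11, adjusted p = 0.049), and Ccne2 was not called there. Tnnc2 averaged 1.33 counts per library.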

How the data were processed

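Islet RNA of 12 libraries (NEB Ultra II kit, paired-end) was counted per gene. Per the labels and the submitters' processing notes, the authors made the deposited counts with bcl2fastq 2.20.0, Trimmomatic, TopHat2 2.0.11 and featureCounts on NCBIM37/mm9; the values are raw counts, and no strand setting is given in the sources used here. Replicates are pools of islets, so p-values measure the spread between pools.

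Counts were tested with edgeR 4.0.16 in R 4.3.3 (quasi-likelihood F test, TMM factors of 0.684 to 1.19, filterByExpr with a minimum count of 10, 4 group means over 12 libraries, Benjamini-Hochberg adjustment over 15961 genes, threshold 0.05), while the study's own tool, DESeq2 (here 1.42.0), was an alternative. Symbols came from a list of gene names by gene ID, or else from the mm9 annotation (37205 of 37991 rows). Listed genes not found in this way were sought through RefSeq synonyms. The 44 genes and the other lists were chosen with earlier results of these data known. Values per library are given for 22 of the genes named by symbol, for those called between Tg7 and Wt, and for the 3 highest and 3 lowest fold changes with age; from other lists, the 3 largest called changes are named, except for a gene that is not reported here. Other settings were RLE, upper-quartile and library-size scaling, leaving out the 20 most abundant genes, no filter or at least 50 counts in 3 libraries, edgeR on the compared groups alone, a replicate block, and leaving out each library. Motifs were searched with Python 3.11.15, and figures were drawn with matplotlib 3.10.9.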

Additional observations from a re-analysis of the deposited data

Results flagged for a closer look

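Among the further cell cycle genes, the change in Tg7 against Wt differed between 2w and 12w for Spc25, a subunit of the Ndc80 kinetochore complex. The log2 difference between the ages was −1.19 (SE 0.20, adjusted p = 0.0113, edgeR's quasi-likelihood test). Its mean level was 130 CPM in 2w Wt, 55.4 CPM in 2w Tg7, 218 CPM in 12w Wt and 40.9 CPM in 12w Tg7. With age it rose in Wt (log2 fold change 0.75, adjusted p = 0.00305) and was −0.44 in Tg7 (adjusted p = 0.0616), where the 26 G2 and M phase genes above fell in Tg7. Its neighbour on the opposite strand, G6pc2, a β-cell glucose-6-phosphatase, lies 4878 bases away with no shared exon bases, and had log2 fold changes of −3.56 at 2w and −3.40 at 12w in Tg7 against Wt. With age G6pc2 was at 1.12 in Wt and 1.28 in Tg7, a difference of 0.16. The part of that neighbour in the counts of Spc25 was not tested.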

How the results depend on the processing

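None of the 21 settings called any of the 44 genes higher with age, in either genotype, or lower in Tg7 at either age. The log2 fold changes given in the text for single genes of the 44 were taken under each other setting. Of these, 1497 kept their direction and call, 37 gained a call, 25 lost theirs and 13 turned sign. Genes of the other lists were not included in these counts. The count of the 44 genes higher in Tg7 at 2w, 1 with the main settings, was 3 with no expression filter, 2 with DESeq2 and 3 with edgeR on those groups alone, and ran from 1 to 11 when libraries were left out, 11 being without 2w Tg7 replicate 2. The count at 12w, also 1, was 11 with library size alone, 4 with upper-quartile factors, 3 with no filter, 2 with the stricter filter, which kept 41 of the 44 genes, and 3 with DESeq2, and ran from 1 to 6 without single libraries. The count of genes that fell in Wt, 23, ran from 11 (without 2w Wt replicate 2) to 26 without single libraries, was 16 without 12w Wt replicate 1, and was 31 with library size alone; that in Tg7, 29, ran from 23 to 33 over all settings. With library size alone the median of all genes was 0.19 at 2w, 0.43 at 12w, −0.35 with age in Wt, −0.13 with age in Tg7 and 0.25 for the difference. The medians of the 44 genes were then 0.85 at 12w, −1.67 in Wt with age and 0.054 for the difference, where the sign turned. The cause was not tested beyond these values.

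With the replicate block, 1 gene was higher in Tg7 at 2w and 5 at 12w, and 21 fell with age in Wt and 30 in Tg7. Residuals of libraries with the same number correlated at −0.167 to −0.0112, so the numbers were not taken as pairs, and 12w Wt replicate 4 has no partner in that fit.

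Of the log2 fold changes given in the text for genes of the 44, the following turned sign. With age in Wt, Mcm6 was −0.0077 with library size alone and Tyms 0.28 with the replicate block. Without single libraries, Pcna ran from −0.16 to 0.0082, Rrm2 from −0.57 to 0.089, Tyms from −0.25 to 0.24 and E2f1 from −0.32 to 0.22 in Wt, and Mcm2 from −0.17 to 0.092 and Rrm2 from −0.54 to 0.26 in Tg7. Top2a at 12w was 0.091 with library size alone and ran from −0.54 to 0.0051 without single libraries. In these cases, too, the cause was not tested. Depth limits the rarest genes: at 12w, Ccnb1 rested on as few as 2 counts and Uhrf1 on 0 in a Wt library.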
